A study of Mus musculus with 21 samples.

Results

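The mitochondrially encoded genes are the 37 genes of the mouse mitochondrial chromosome, chosen here by a symbol that begins with mt- among the 54232 genes counted. They comprise 13 protein-coding genes, 2 rRNA genes and 22 tRNA genes. They were measured by RNA-seq of fully grown oocytes at the germinal vesicle stage, with 3 oocytes pooled per library, from female C57BL/6-background mice of 3 to 4 months. The study asked how much of the kinesin motor KIF11 an oocyte needs. The groups differ in their *Kif11* alleles and in the Cre recombinase that deletes the floxed (fl) allele. Control *Kif11* wt/fl oocytes carried a wild-type and a floxed allele and no Cre (4 libraries). *Kif11* wt/fl Spo11-Cre oocytes (5 libraries) had the same alleles with a Cre that acts early in meiotic prophase. *Kif11* fl/del oocytes (4 libraries) carried a floxed allele and an allele already deleted in the germline, without Cre. *Kif11* fl/del Spo11-Cre oocytes (4 libraries) combined both. The last groups, fl/fl Gdf9-Cre (2 libraries) and fl/fl Zp3-Cre (2 libraries), had 2 floxed alleles and a Cre driven by an oocyte-specific promoter. Because 1 or 2 libraries came from a mouse, p-values measure the spread between libraries, and some libraries may share an animal. The names of the 17 libraries outside the fl/fl groups carry 9 prefixes, with 8 pairs of the same group sharing one. A shared prefix may mean a shared mouse, so n counts libraries and not mice. After the prefix the name has a letter, A in all wt/fl and fl/del libraries without Cre and B or C in those with Spo11-Cre. C occurs only in wt/fl Spo11-Cre replicate 5. What the letter stands for is not stated, and it cannot be told apart from Spo11-Cre.

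Mitochondrial DNA is a circle that is inherited through the oocyte. It is transcribed from both strands as long precursors, and the tRNAs that lie between the other genes mark where these precursors are cut. Its protein-coding genes encode subunits of respiratory complexes I, III, IV and of ATP synthase, while its rRNAs, *mt-Rnr1* (12S) and *mt-Rnr2* (16S), build the mitochondrial ribosome. All other respiratory subunits, and the proteins that copy, transcribe and process mitochondrial RNA, are encoded in the nucleus.

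Library totals ran from 7205010 to 18454549 counts. *Kif11* itself, counted over all exons, was at 23.8 to 43.2 CPM (counts scaled to a library total of 1000000) in wt/fl and at 1.08 to 2.70 CPM in fl/del Spo11-Cre oocytes, with fl/del between 7.49 and 14.6 CPM. With fl/fl Gdf9-Cre it was at 4.90 and 5.11 CPM, with fl/fl Zp3-Cre at 4.27 and 7.95 CPM. The 14 oocyte markers (*Gdf9*, *Zp3* and others) summed to between 27572.7 and 37118.5 CPM in every library. The 18 follicle cell markers summed to between 71.8 and 127 CPM, of which *Cyp19a1* and *Nr5a2* gave means of 66.2 and 28.5 CPM. *Foxl2*, a defining granulosa gene, had no count in any library, and *Amhr2* had counts in 1. *Cyp19a1*, *Nr5a2* and *Kitl* had counts in 21 libraries and *Fshr* and *Cyp11a1* in 19. *Has2* had counts in 10, *Inha* and *Inhba* in 9, and the remaining markers in 1 to 8. Of 5 blood markers, 3 were at 0 throughout and the summed level did not exceed 0.360 CPM.

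Several members have near-identical copies in the nuclear genome, and these sequences bear on how each member could be counted. A block of annotated unprocessed pseudogenes on the reverse strand of chromosome 1 (GRCm38) carries most of the stretch from the end of *mt-Co1* to the middle of *mt-Nd4*. The sequences below are from the GENCODE transcripts of GRCm38, each written 5′ to 3′ in the direction of the mitochondrial gene, with capitals at the bases that differ between the members of a pair. The first pairs are shown because they are identical, or differ by 1 base, over the stretch printed.
*mt-Co2* (chrM:7013-7072): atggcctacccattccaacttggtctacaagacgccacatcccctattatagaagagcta
*Gm28661* (chr1:24615506-24615565): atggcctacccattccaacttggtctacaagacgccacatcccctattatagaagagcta
*mt-Co3* (chrM:8607-8666): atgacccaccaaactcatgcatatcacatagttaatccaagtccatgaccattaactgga
*Gm28437* (chr1:24613912-24613971): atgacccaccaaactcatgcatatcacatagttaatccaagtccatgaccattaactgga
*mt-Nd3* (chrM:9459-9518): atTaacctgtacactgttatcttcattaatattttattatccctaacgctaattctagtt
*Gm28438* (chr1:24613060-24613119): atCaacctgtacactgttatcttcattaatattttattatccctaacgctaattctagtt
*mt-Co1* (chrM:6390-6449): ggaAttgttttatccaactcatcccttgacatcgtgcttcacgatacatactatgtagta
*Gm29216* (chr1:24616129-24616188): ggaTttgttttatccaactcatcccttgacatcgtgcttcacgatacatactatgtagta

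Over the aligned stretch, *Gm28661* matched 681 of 681 bp of *mt-Co2*, *Gm10925* 678 of 678 bp of *mt-Atp6*, *Gm28437* 783 of 783 bp of *mt-Co3* and *Gm10222* 294 of 294 bp of *mt-Nd4l*. *Gm28438* differed from *mt-Nd3* by 1 substitution, T3C, counted from 1 at the start of *mt-Nd3* with the mitochondrial base first. *Gm29216* covers the last 483 bp of *mt-Co1* with 1 substitution, A1066T, and *Gm28439* is identical to the first 876 bp of *mt-Nd4*. A further pair of members is shown for contrast, since their closest copies differ often enough that no stretch of 150 bases, the read length, is shared.
*mt-Nd2* (chrM:4442-4501): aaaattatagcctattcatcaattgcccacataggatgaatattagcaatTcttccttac
*Gm13339* (chr2:22590474-22590533): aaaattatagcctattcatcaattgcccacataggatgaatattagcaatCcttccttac
*mt-Cytb* (chrM:14146-14205): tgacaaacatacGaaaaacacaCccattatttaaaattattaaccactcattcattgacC
*Gm11410* (chr4:80003990-80004049): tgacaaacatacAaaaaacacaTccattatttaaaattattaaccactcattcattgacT

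The longest identical run was 129 bases between *mt-Nd2* and *Gm13339* and 47 bases between *mt-Cytb* and *Gm11410*, where identity was 92.9% over 1142 bp. Measured over all annotated transcripts, 99.4% of the 150-base windows of *mt-Co2*, 99.4% of those of *mt-Atp6*, 99.8% of *mt-Co3*, 97.0% of *mt-Nd3* and 98.0% of *mt-Nd4l* occurred elsewhere. The share was 59.2% for *mt-Nd4* and 23.6% for *mt-Co1*. It was 0 for the 2 rRNA genes and for *mt-Nd1*, *mt-Nd2*, *mt-Nd5*, *mt-Nd6*, *mt-Cytb* and *mt-Atp8*. The counts were of uniquely mapped reads, so the level of a gene with such a copy is uncertain. Neighbouring members also overlap, the longest overlap being the 43 bases shared by *mt-Atp8* and *mt-Atp6*, in capitals here.
*mt-Atp8* and *mt-Atp6* (chrM:7912-7984): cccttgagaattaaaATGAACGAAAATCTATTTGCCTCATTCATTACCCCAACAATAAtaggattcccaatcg

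The library kit does not mark strand. *mt-Nd6*, the only protein-coding member on the light strand, shares 14 bp with *mt-Nd5* on the other strand, and reads from its antisense transcript cannot be told from its own.

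Mitochondrially encoded genes took 0.168% to 0.510% of the counts of a library. Level per length, as CPM per kb of gene length, differed widely among them. In wt/fl oocytes *mt-Cytb*, a subunit of complex III, was highest at 541 ± 158 CPM per kb (SD, n = 4). It was followed by *mt-Co1*, the catalytic subunit of complex IV, at 357 ± 90.9, by *mt-Rnr2* at 289 ± 41.5 and by the complex I subunit *mt-Nd1* at 224 ± 34.8 CPM per kb. The ranges of neighbours in this order overlapped over libraries. A gap separated *mt-Nd1*, with a lowest library of 181 CPM per kb, from *mt-Rnr1* at 92.6 ± 7.85, whose highest library was 103 CPM per kb. *mt-Nd4*, *mt-Nd2*, *mt-Nd5* and *mt-Nd6*, all subunits of complex I, followed at 91.3 ± 30.9, 79.2 ± 17.3, 50.5 ± 17.4 and 41.6 ± 18.1 CPM per kb, with ranges that overlapped from one to the next.

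The second gap lay below *mt-Nd6*, whose lowest wt/fl library was 27.4 CPM per kb, and above *mt-Co3*, whose highest was 13.6 CPM per kb. The 6 genes below it were *mt-Co3* at 11.8 ± 2.13, *mt-Co2* at 8.03 ± 1.07, *mt-Atp8* at 4.96 ± 4.13, *mt-Atp6* at 4.81 ± 1.14, *mt-Nd4l* at 1.44 ± 1.15 and *mt-Nd3* at 0.268 ± 0.413 CPM per kb. Of these, 5 are the members with an identical or nearly identical annotated copy on chromosome 1. The other one, *mt-Atp8*, shares no 150-base window with any annotated transcript, but is 204 bp long and overlaps *mt-Atp6*. It lies between *mt-Co2* and *mt-Atp6*, whose copies leave a gap from chr1:24614651 to 24614885. Only annotated transcripts were searched, so an unannotated copy of *mt-Atp8* in that gap would have been missed. *mt-Co1* and *mt-Nd4*, which share part of their length with a copy, were among the higher genes. Whether the shared sequence set these levels was not tested.

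**Figure D1:**
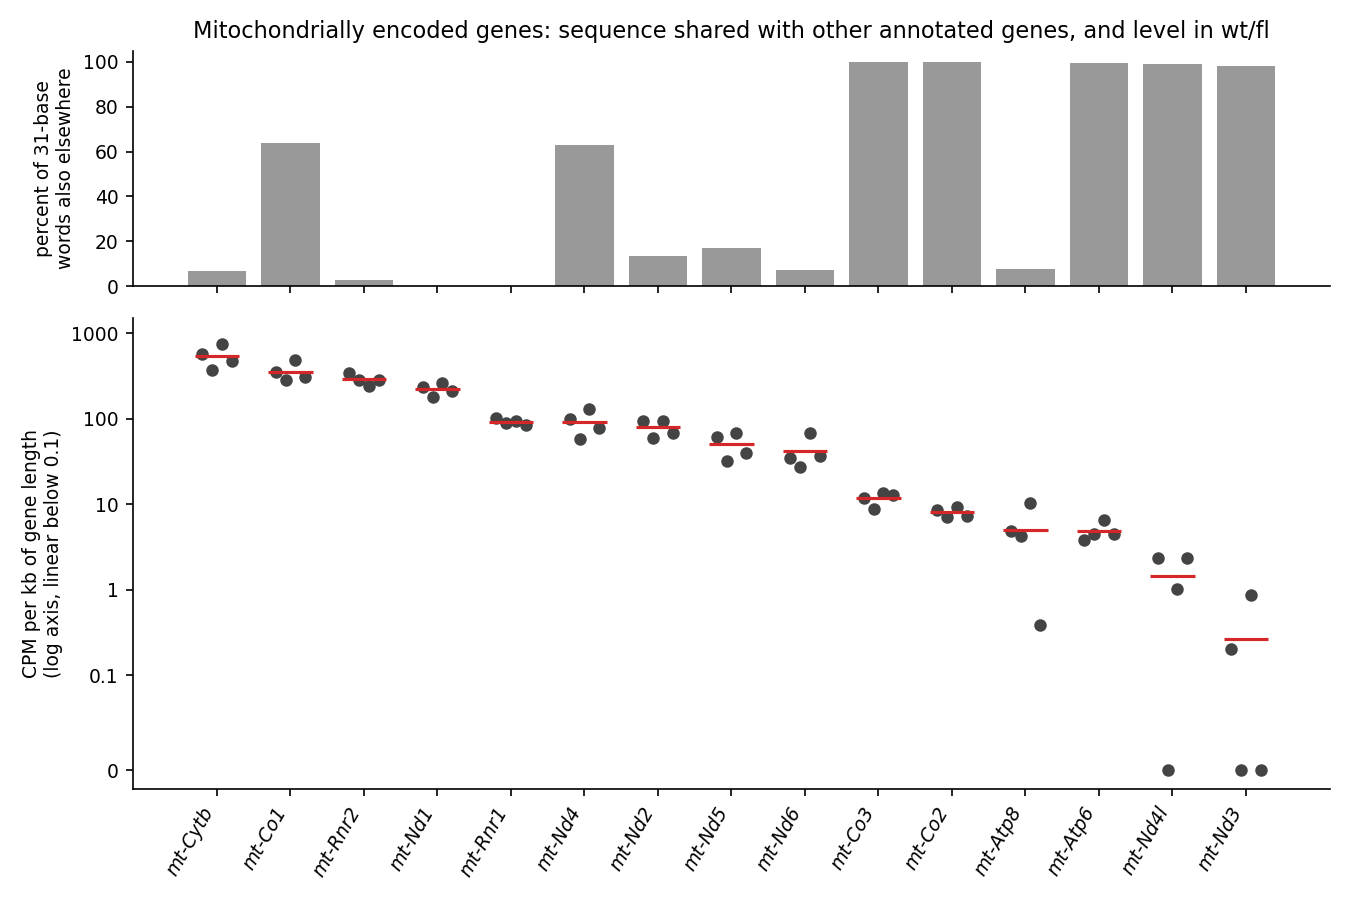
Sequence shared with other annotated genes (top, percent of each gene's 31-base words that occur in another annotated gene) and level in the 4 wt/fl libraries (bottom, CPM per kb on a log axis that is linear below 0.1; points are libraries, red lines are means) for the 2 rRNA and 13 protein-coding genes, ordered by level. The 5 genes with 98.1% or more of their words elsewhere lie among the 6 lowest.

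Reads were also assigned to the copies. Over the 21 libraries, *Gm28437* had a mean of 14.7 CPM beside 11.8 CPM for *mt-Co3*, *Gm10925* had 6.68 beside 6.10 CPM for *mt-Atp6*, and *Gm28661* had 5.60 beside 8.37 CPM for *mt-Co2*. The copy thus held 55.4%, 52.3% and 40.1% of the summed CPM of each pair. By contrast *Gm28439*, whose whole length is identical to the start of *mt-Nd4*, held 0.488% of the pair's sum. Reads that map equally well to a gene and its copy are in neither count.

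The tRNA genes are 59 to 75 bp long, shorter than a read, and were barely counted. In the counts used here, with *Kif11* counted over all exons, 4 of the 22 had no count in any library. Another 5 had counts in 1 library only, and 12 had counts in enough libraries to be tested. The 3 most counted tRNAs held 90.7% of all tRNA counts, and no other tRNA had more than 49 counts over the 21 libraries. They are the glutamine tRNA *mt-Tq* (1308 counts), the methionine tRNA *mt-Tm* (1040 counts), which lies beside it, and the proline tRNA *mt-Tp* (653 counts).
*mt-Tq* (chrM:3772-3842, light strand): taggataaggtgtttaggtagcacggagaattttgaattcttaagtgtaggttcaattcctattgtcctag
*mt-Tm* (chrM:3845-3913): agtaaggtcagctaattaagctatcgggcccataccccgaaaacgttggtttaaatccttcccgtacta
*mt-Tp* (chrM:15356-15422, light strand): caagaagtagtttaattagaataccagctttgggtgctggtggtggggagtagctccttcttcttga

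Share by group came next. The 13 protein-coding genes together held 0.173% ± 0.0451 of counts in wt/fl (SD, n = 4) and 0.187% ± 0.0289 in wt/fl Spo11-Cre (SD, n = 5). For fl/del the value was 0.144% ± 0.0278 (SD, n = 4), and for fl/del Spo11-Cre 0.190% ± 0.0144 (SD, n = 4). These 4 groups overlapped, except that 3 of the 4 fl/del libraries, at 0.124% to 0.134%, lay below all libraries with Spo11-Cre. The wt/fl Spo11-Cre libraries were at 0.139% to 0.211% and the fl/del Spo11-Cre libraries at 0.174% to 0.206%. The rRNA genes moved differently. They held 0.0478% to 0.0644% in wt/fl and 0.0328% to 0.0426% in wt/fl Spo11-Cre, without overlap. For fl/del the range was 0.0341% to 0.0499%, and for fl/del Spo11-Cre it was 0.0557% to 0.0702%, again without overlap. The ratio of rRNA to protein-coding counts was 0.206 to 0.416 in wt/fl, and in wt/fl Spo11-Cre it was 0.180 to 0.201 in 4 libraries and 0.307 in replicate 5. Among the fl/fl libraries the protein-coding share with Gdf9-Cre was 0.415% and 0.186%, and with Zp3-Cre it was 0.237% and 0.270%. Both Zp3-Cre libraries were above the highest wt/fl library, at 0.232%, but of the Gdf9-Cre libraries only replicate 1 was.

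**Figure D2:**
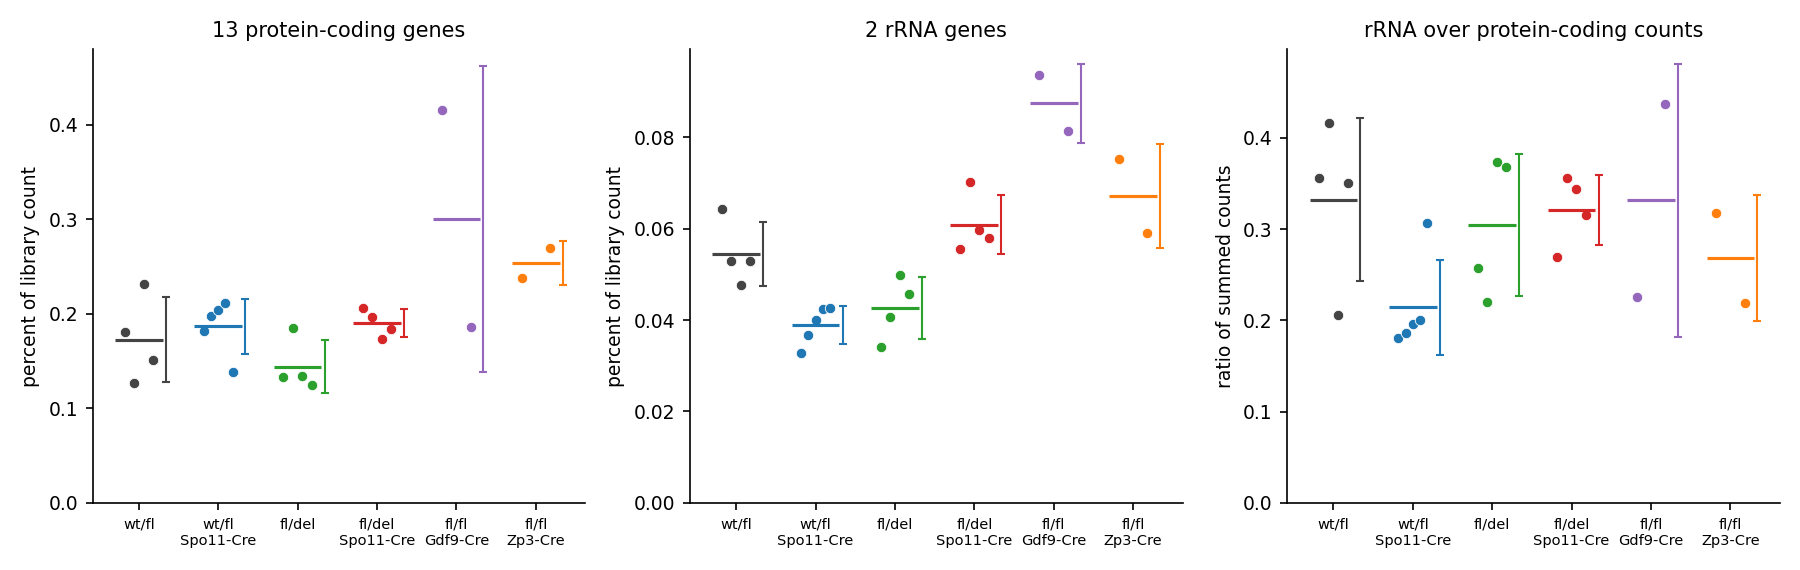
Percent of each library's counts held by the 13 protein-coding genes (left) and the 2 rRNA genes (middle), and the ratio of rRNA to protein-coding counts (right), by group. Points are libraries, horizontal lines are means and bars are the SD; the rRNA share of the 5 wt/fl Spo11-Cre libraries (highest 0.0426%) lies below that of the 4 wt/fl libraries (lowest 0.0478%).

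To compare the groups gene by gene, the quasi-likelihood test of edgeR was run on all genes with a count in at least 3 libraries, 22383 genes for the Spo11-Cre background (17 libraries) and 23225 for the fits with fl/fl (21 libraries). A gene was called at a Benjamini-Hochberg adjusted p under 0.05 over all of them. Of the 37 members 27 entered both fits, and all 13 protein-coding and both rRNA genes are among them. Comparisons against the same group share its libraries and are not independent of each other.

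The clearest single member was *mt-Rnr2*, the 16S rRNA. It was at 546, 445, 387 and 449 CPM in the wt/fl libraries and at 261, 301, 317, 342 and 337 CPM in wt/fl Spo11-Cre. The fl/del libraries were at 277, 338, 419 and 365 CPM, and the fl/del Spo11-Cre libraries at 459.9, 596, 507 and 493.3 CPM. Every wt/fl Spo11-Cre library was thus below every wt/fl library, whereas every fl/del Spo11-Cre library was above every fl/del library. *mt-Rnr2* fell in wt/fl Spo11-Cre against wt/fl, by 0.52 on the log2 scale (SE 0.10, adjusted p = 0.00068, edgeR). It rose in fl/del Spo11-Cre against fl/del, with a log2 fold change of 0.54 (SE 0.10, adjusted p = 0.00193, edgeR). The difference between these log2 fold changes, tested as an interaction, was 1.06 on the log2 scale (SE 0.14, adjusted p = 5.71e-06, edgeR). Spo11-Cre, deletion of the floxed allele and the letter in the library names go together here, and their parts cannot be told apart. *mt-Rnr2* was the only member called in the interaction, in which 0.0625% of all genes tested were called higher.

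Between the Spo11-Cre groups, *mt-Rnr2* was higher in those with the del allele, by 0.69 on the log2 scale (SE 0.10, adjusted p = 1.22e-05, edgeR). It was the 1 gene called higher among the 22383 tested in that comparison, 0.00447% of them, and 8 genes were called in all. These 4 results on *mt-Rnr2* share libraries, so they are views of the same 17 values. The summed follicle cell markers, at 84.4 to 127 CPM in wt/fl, 71.8 to 102 CPM with wt/fl Spo11-Cre, 98.6 to 117 CPM with fl/del and 92.7 to 114 CPM with fl/del Spo11-Cre, were also lowest in wt/fl Spo11-Cre, and their part in the result was not tested. Of the 18 markers 14 were tested, with a median log2 fold change of −1.384 in wt/fl Spo11-Cre against wt/fl and −0.389 in fl/del Spo11-Cre against fl/del. edgeR and DESeq2 called none of them in either comparison, with 6 and 3 at an unadjusted p under 0.05 by edgeR and 4 and 1 by DESeq2. Of the 14 oocyte markers, edgeR called 1 higher and 4 lower in wt/fl Spo11-Cre against wt/fl, beside 0.867% and 1.33% of all genes tested. DESeq2 called 5 there, beside 931 genes in all. In fl/del Spo11-Cre against fl/del neither called any. In the interaction edgeR called 1 lower, beside 23 genes called in all. The part of these markers in the result was not tested. *mt-Rnr1*, the 12S rRNA cut from the same precursor, was not called in any comparison of the Spo11-Cre background. Its log2 fold change was −0.17 (SE 0.11) in wt/fl Spo11-Cre against wt/fl and 0.29 (SE 0.12, adjusted p = 0.538, edgeR) in fl/del Spo11-Cre against fl/del. The ratio of *mt-Rnr2* to *mt-Rnr1* counts was 5.17 ± 0.599 in wt/fl (SD, n = 4) and 4.05 ± 0.346 in wt/fl Spo11-Cre (SD, n = 5). It was 4.57 ± 0.554 for fl/del (SD, n = 4) against 5.42 ± 0.443 for fl/del Spo11-Cre (SD, n = 4).

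Complex I genes were the other members called in the Spo11-Cre background. *mt-Nd5* was at 112, 58.8, 125 and 72.2 CPM in wt/fl, and at 109, 136, 126, 127 and 108 CPM in wt/fl Spo11-Cre. It was at 68.4, 104, 66.9 and 64.7 CPM in fl/del, and at 137, 145, 123 and 115 CPM in fl/del Spo11-Cre oocytes. Both groups with Spo11-Cre lay above every fl/del library, and the wt/fl libraries spread over the range of both. *mt-Nd6* was at 17.9, 14.2, 35.4 and 18.9 CPM in wt/fl and at 28.1, 26.1, 28.0, 22.7 and 25.1 CPM in wt/fl Spo11-Cre. The fl/del libraries were at 12.8, 18.5, 7.22 and 13.7 CPM, and the fl/del Spo11-Cre libraries at 29.7, 28.4, 21.5 and 28.4 CPM. The fl/del libraries were again below all libraries with Spo11-Cre. The share of all genes with fl/del below both of these groups was not computed.

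In fl/del Spo11-Cre against fl/del, *mt-Nd5* rose with a log2 fold change of 0.75 (SE 0.14, adjusted p = 0.00341, edgeR) and *mt-Nd6* with 1.00 (SE 0.21, adjusted p = 0.0132, edgeR). With *mt-Rnr2*, 3 members were called higher in this comparison and none lower, where 0.156% of all genes tested were called higher. All libraries of fl/del Spo11-Cre were above all of fl/del for these 3 of the 15 rRNA and protein-coding genes, and for 2.3% of all genes tested. All 15 had a log2 fold change above 0 (14 with the exon 22 table), with a median of 0.482 beside 0.008 over all genes tested, and the 12 others did not pass the threshold. *mt-Nd1*, *mt-Nd2* and *mt-Nd4* had values of 0.52 (SE 0.13, adjusted p = 0.0679), 0.53 and 0.48. *mt-Co1*, with 0.19, and *mt-Atp8*, also 0.19, had the smallest. Without fl/del replicate 2, the highest of its group for *mt-Nd1*, *mt-Nd2*, *mt-Nd5* and *mt-Nd6*, 6 members were called. *mt-Nd6* was not called without fl/del replicate 3 (adjusted p = 0.11, edgeR) or without fl/del Spo11-Cre replicate 1, nor *mt-Nd5* by DESeq2 (adjusted p = 0.0995). The call on *mt-Nd6* was also lost with all 21 libraries in the fit and with edgeR's stricter expression filter.

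Set against wt/fl Spo11-Cre, the fl/del libraries were lower for 3 complex I genes. *mt-Nd5* fell by 0.67 on the log2 scale (SE 0.14, adjusted p = 0.0133), *mt-Nd6* fell by 0.98 (SE 0.20, adjusted p = 0.0149) and *mt-Nd2* fell by 0.57 (SE 0.13, adjusted p = 0.0278, edgeR). These 3 called members stand beside 0.134% of all genes tested that were called lower. None of the 3 calls held in every setting, and none was made without fl/del replicate 3, without fl/del replicate 4, with all 21 libraries in the fit, or with edgeR's stricter expression filter. *mt-Nd5* and *mt-Nd2* also lost the call without fl/del replicate 1, and *mt-Nd2* without wt/fl Spo11-Cre replicate 2, 3 or 4. The shallowest of the 21 libraries was fl/del replicate 3, with a total of 7205010 counts. It held 52 counts of *mt-Nd6*, and the part of its depth in the results on fl/del was not tested. The 14 follicle cell markers tested had a median log2 fold change of 1.448 in this comparison, none called by edgeR or DESeq2, with 6 and 3 at an unadjusted p under 0.05, and their part in the result was not tested.

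*mt-Nd2*, at 98.1, 62.7, 96.8 and 71.3 CPM in wt/fl and at 107, 117, 119, 135 and 87.1 CPM in wt/fl Spo11-Cre, was the 1 member called higher in wt/fl Spo11-Cre against wt/fl. Its log2 fold change was 0.48 (SE 0.13, adjusted p = 0.0271, edgeR), the groups overlapped, and the call was lost when any of 5 libraries was left out (wt/fl replicates 2 and 4 and wt/fl Spo11-Cre replicates 2, 3 and 4). The call on *mt-Nd2* was also lost with libraries of a shared name prefix, which may share a mouse, summed, with filterByExpr and with all 21 libraries. In that comparison 0.867% of all genes tested were called higher and 1.33% lower. For *mt-Rnr2*, the 1 member called lower, the groups did not overlap, as for 2.82% of all genes tested with wt/fl Spo11-Cre lower. The median log2 fold change over the 15 genes was 0.160 beside 0.033 over all genes tested, with 11 above 0.

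**Figure D3:**
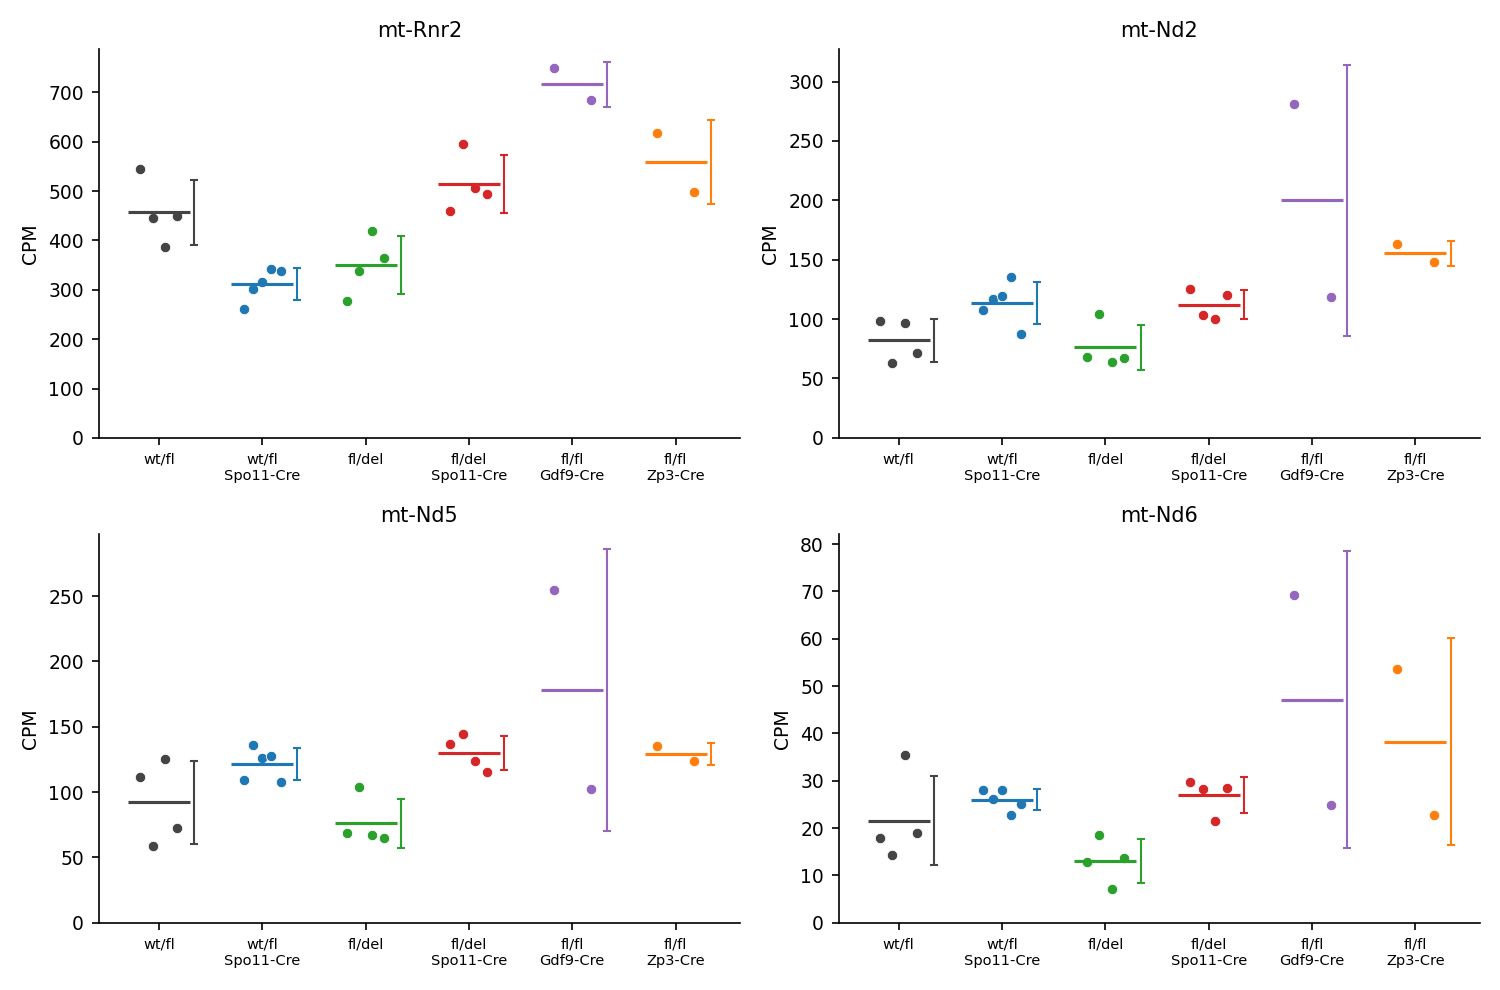
CPM of mt-Rnr2, mt-Nd2, mt-Nd5 and mt-Nd6 in the 21 libraries, by group. Points are libraries, horizontal lines are means and bars are the SD; for mt-Rnr2 the wt/fl Spo11-Cre libraries (261 to 342 CPM) lie below the wt/fl libraries (387 to 546 CPM), and for mt-Nd5 the fl/del libraries (64.7 to 104 CPM) lie below both groups with Spo11-Cre.

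No member was called by edgeR in fl/del against wt/fl, where 5 members had an unadjusted p under 0.05 and 0.0223% of all genes tested were called. DESeq2 also called none, with 3 members at an unadjusted p under 0.05. Of the 15 genes 13 had a log2 fold change below 0, with a median of −0.243 beside 0.000 over all genes tested, and *mt-Rnr2* had −0.37 (SE 0.10). No member was called by edgeR in fl/del Spo11-Cre against wt/fl either, with 4 members at an unadjusted p under 0.05 and 0.197% of all genes tested called. DESeq2 called none, with 2 at an unadjusted p under 0.05. There the median over the 15 genes was 0.257 beside 0.012 over all genes tested. In both comparisons *mt-Cytb* and *mt-Co1*, the most counted members, had log2 fold changes between −0.29 and 0.14 with SEs of 0.12 and 0.13.

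The fl/fl groups had higher levels than wt/fl for many members. Driver, genotype and set of libraries all differ between them and wt/fl, and their parts cannot be told apart. They were also shallower, with totals of 7801470 to 10759741 counts beside 12729969 to 14283549 in wt/fl. The part of depth in these results was not tested.

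Among the called members, *mt-Atp6*, *mt-Co2* and *mt-Co3*, each with an identical copy on chromosome 1, had the largest log2 fold changes in both fl/fl groups against wt/fl. *mt-Atp6*, a subunit of the proton channel of ATP synthase, was at 2.59, 3.06, 4.40 and 3.05 CPM in wt/fl, at 18.2 and 10.6 CPM with Gdf9-Cre and at 16.1 and 16.5 CPM with Zp3-Cre. *mt-Co2*, a core subunit of complex IV that receives electrons from cytochrome c, was at 5.81, 4.79, 6.37 and 5 CPM in wt/fl, at 21.3 and 15.99 CPM with Gdf9-Cre and at 16.3 and 16.98 CPM with Zp3-Cre. *mt-Co3*, another core subunit of that complex, was at 9.31, 6.91, 10.7 and 10.2 CPM in wt/fl, at 31.4 and 17.1 CPM with Gdf9-Cre and at 18.8 and 28.9 CPM with Zp3-Cre. For these 3 genes all fl/fl libraries were above all wt/fl libraries, and also above all 13 other libraries of the Spo11-Cre background.

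With Gdf9-Cre, the log2 fold change against wt/fl was 2.06 (SE 0.39, adjusted p = 0.000594) for *mt-Atp6*, 1.69 (SE 0.33, adjusted p = 0.000979) for *mt-Co2* and 1.31 (SE 0.30, adjusted p = 0.00768, edgeR) for *mt-Co3*. With Zp3-Cre it was 2.21 (SE 0.39, adjusted p = 0.000155) for *mt-Atp6*, 1.49 (SE 0.33, adjusted p = 0.00399) for *mt-Co2* and 1.27 (SE 0.30, adjusted p = 0.00838, edgeR) for *mt-Co3*. Both sets of values are against the same 4 wt/fl libraries. With one library per arm left out, *mt-Co3* lost its call without Gdf9-Cre replicate 1 and without Zp3-Cre replicate 2, *mt-Atp6* without Gdf9-Cre replicate 1 (adjusted p = 0.0793) and *mt-Co2* without Zp3-Cre replicate 1 (adjusted p = 0.0502). A lone library was then assumed to vary like the other groups. *mt-Nd3*, the most weakly counted protein-coding member beside *mt-Nd4l*, held 24, 8, 10 and 10 counts in the fl/fl libraries against 1, 0, 4 and 0 in wt/fl, and was not called (adjusted p = 0.247 with Gdf9-Cre and 0.279 with Zp3-Cre, edgeR).

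Of the 7 annotated copies of the block, 1 was called higher with Gdf9-Cre and 2 with Zp3-Cre against wt/fl, beside 0.538% and 1.04% of all genes tested, and none lower. *Gm10925*, identical to *mt-Atp6*, was at 3.57, 2.98, 5.31 and 3.28 CPM in wt/fl, at 20.3 and 11.4 CPM with Gdf9-Cre and at 16.5 and 18.6 CPM with Zp3-Cre. Its log2 fold change was 1.99 (SE 0.37, adjusted p = 0.000594) with Gdf9-Cre and 2.10 (SE 0.37, adjusted p = 0.000181, edgeR) with Zp3-Cre. *Gm28661*, the copy of *mt-Co2*, had 1.49 (SE 0.43, adjusted p = 0.0559) with Gdf9-Cre and rose with Zp3-Cre by a log2 fold change of 1.68 (SE 0.43, adjusted p = 0.0157, edgeR). *Gm28437*, the copy of *mt-Co3*, had 1.07 and 0.78 and was not called. Summed over the 7 copies, the level was 17.8 to 38.9 CPM in wt/fl, 54.9 and 88.7 CPM in fl/fl Gdf9-Cre, and 68.3 and 74.5 CPM in fl/fl Zp3-Cre. In the comparisons of the Spo11-Cre background edgeR and DESeq2 called none of the 7, and none had an unadjusted p under 0.05 in either. Whether the mitochondrial gene, the copy or the mapping differed was not tested.

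**Figure D4:**
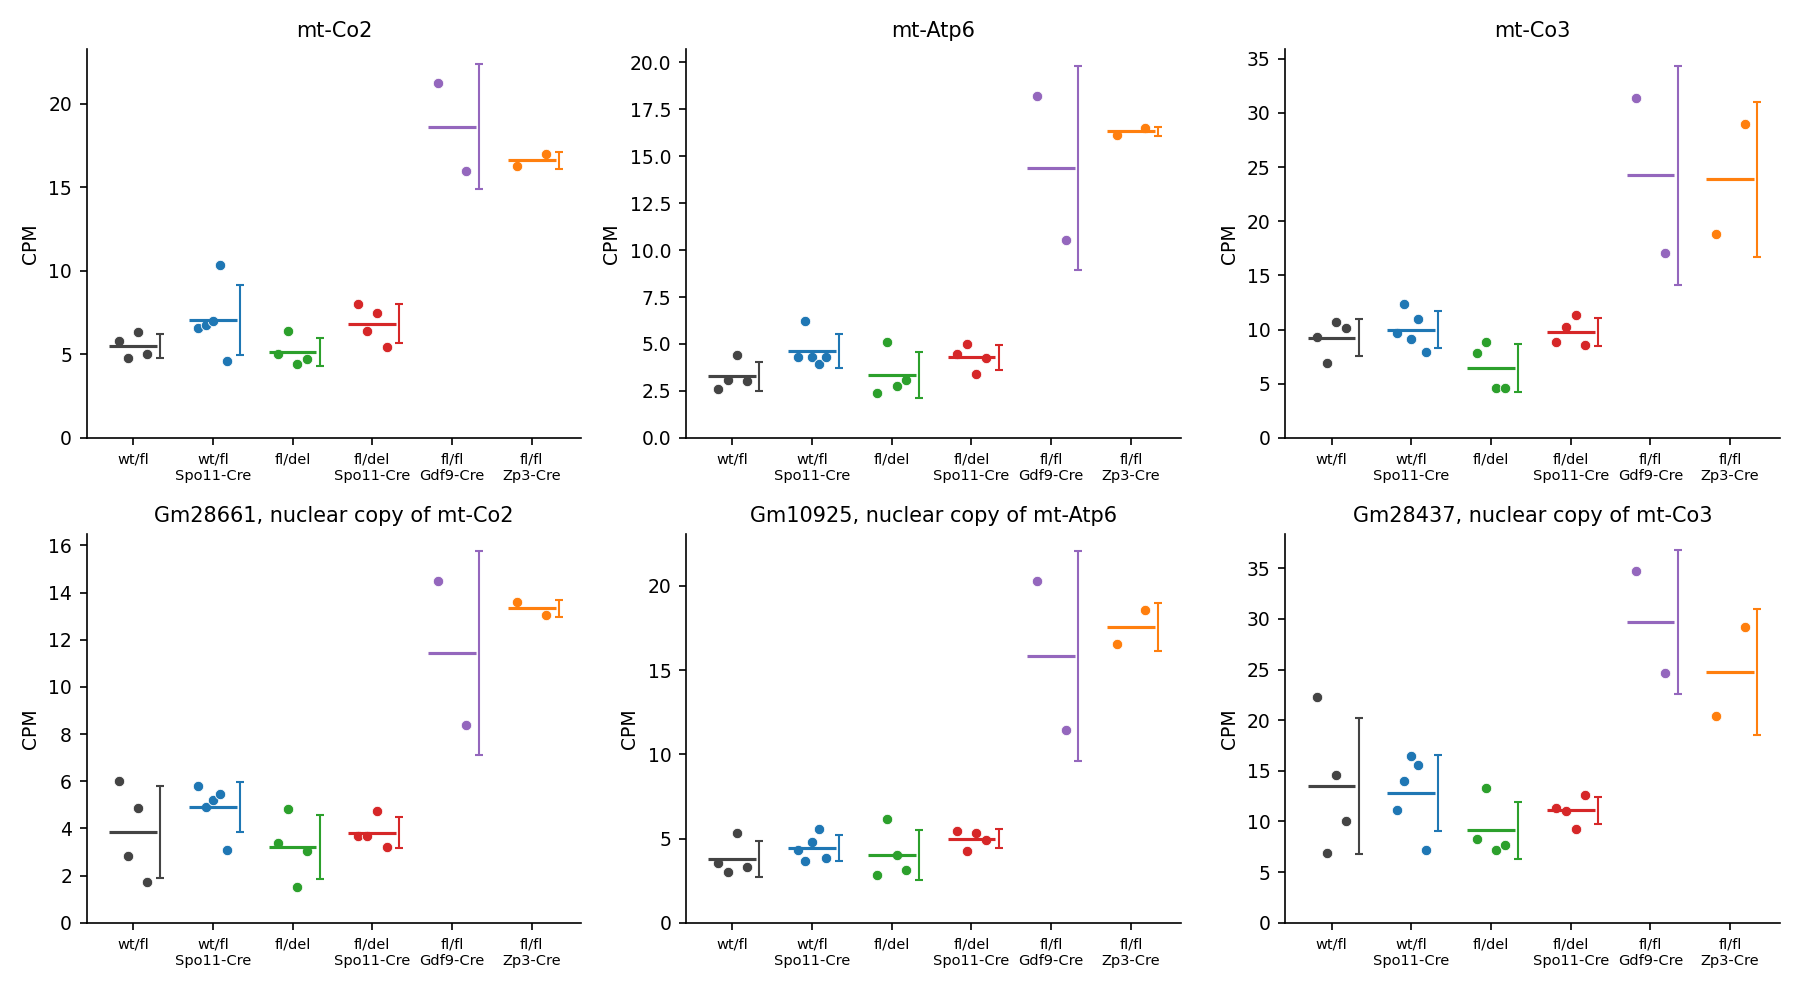
CPM of mt-Co2, mt-Atp6 and mt-Co3 (top) and of the nuclear gene on chromosome 1 that is identical to each (bottom) in the 21 libraries, by group. Points are libraries, horizontal lines are means and bars are the SD; the fl/fl libraries are the highest for the 3 members, and for Gm10925 and Gm28661, but Gm28437 in wt/fl reached 22.3 CPM, above the 20.4 CPM of a Zp3-Cre library.

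With Gdf9-Cre 10 members were called higher and none lower, where 0.538% of all genes tested were called higher. Besides those above, these were *mt-Nd2* (log2 fold change 1.21, SE 0.19), *mt-Nd6* (1.05, SE 0.28), *mt-Nd1* (0.88, SE 0.20), *mt-Nd5* (0.88, SE 0.20), *mt-Cytb* (0.79, SE 0.17), *mt-Rnr1* (0.77, SE 0.16) and *mt-Rnr2* (0.58, SE 0.13), with adjusted p between 2.46e-05 and 0.0346 (edgeR). The replicates disagreed: *mt-Nd1* was at 626 CPM in replicate 1 and at 205 CPM in replicate 2, beside 173 to 252 CPM in wt/fl, and *mt-Cytb* at 1495 and 756 CPM beside 430 to 852 CPM. The rRNAs were closer, with *mt-Rnr2* at 749 and 684 CPM and *mt-Rnr1* at 187 and 129 CPM, above the wt/fl libraries. Without replicate 1, 2 members were called, *mt-Co2* higher and *mt-Tm* lower, and the log2 fold change of *mt-Nd1* was −0.13. Without replicate 2, 12 were called. DESeq2 called 8 of the 10, without *mt-Nd1* and *mt-Nd5*. *mt-Nd6* also lost its call without wt/fl replicate 1, 2 or 4, and *mt-Nd5* without wt/fl replicate 2.

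All 15 rRNA and protein-coding genes had a log2 fold change above 0 with Gdf9-Cre, with a median of 1.018 beside 0.000 over all genes tested. Without replicate 1 the median was 0.28, with 13 of 15 above 0. All libraries of fl/fl Gdf9-Cre were above all of wt/fl for 7 of the 15 genes (*mt-Rnr1*, *mt-Rnr2*, *mt-Nd2*, *mt-Nd3*, *mt-Co2*, *mt-Co3* and *mt-Atp6*), and for 11.7% of all genes tested. *mt-Co1* and *mt-Nd4* had log2 fold changes of 0.43 and 0.53 and were not called.

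With Zp3-Cre 4 members were called higher and none lower, where 1.04% of all genes tested were called higher. The fourth beside *mt-Atp6*, *mt-Co2* and *mt-Co3* was *mt-Nd2*, at 163 and 148 CPM, with a log2 fold change of 0.81 (SE 0.19, adjusted p = 0.00721, edgeR). It was not called without Zp3-Cre replicate 1 (adjusted p = 0.114), when 2 members were called. Without wt/fl replicate 3, 7 were called, and without Zp3-Cre replicate 2, 5. The median log2 fold change over the 15 genes was 0.436 beside −0.002 over all genes tested, with 15 above 0 (13 with the counts of the exon 22 table). All libraries of fl/fl Zp3-Cre were above all of wt/fl for 7 of the 15 genes (*mt-Nd1*, *mt-Nd2*, *mt-Nd3*, *mt-Cytb*, *mt-Co2*, *mt-Co3* and *mt-Atp6*), and for 11.1% of all genes tested. *mt-Rnr2* had 0.18 and *mt-Rnr1* 0.25.

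Between the drivers, no member was called by edgeR in fl/fl Zp3-Cre against fl/fl Gdf9-Cre, with 3 at an unadjusted p under 0.05. DESeq2 called none, with 2 at an unadjusted p under 0.05, while edgeR called 0.891% of all genes tested. The median over the 15 genes was −0.353 beside 0.000 over all genes tested. Without Gdf9-Cre replicate 2, 3 members were called, so the comparison turned on which Gdf9-Cre library was used.

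**Figure D5:**
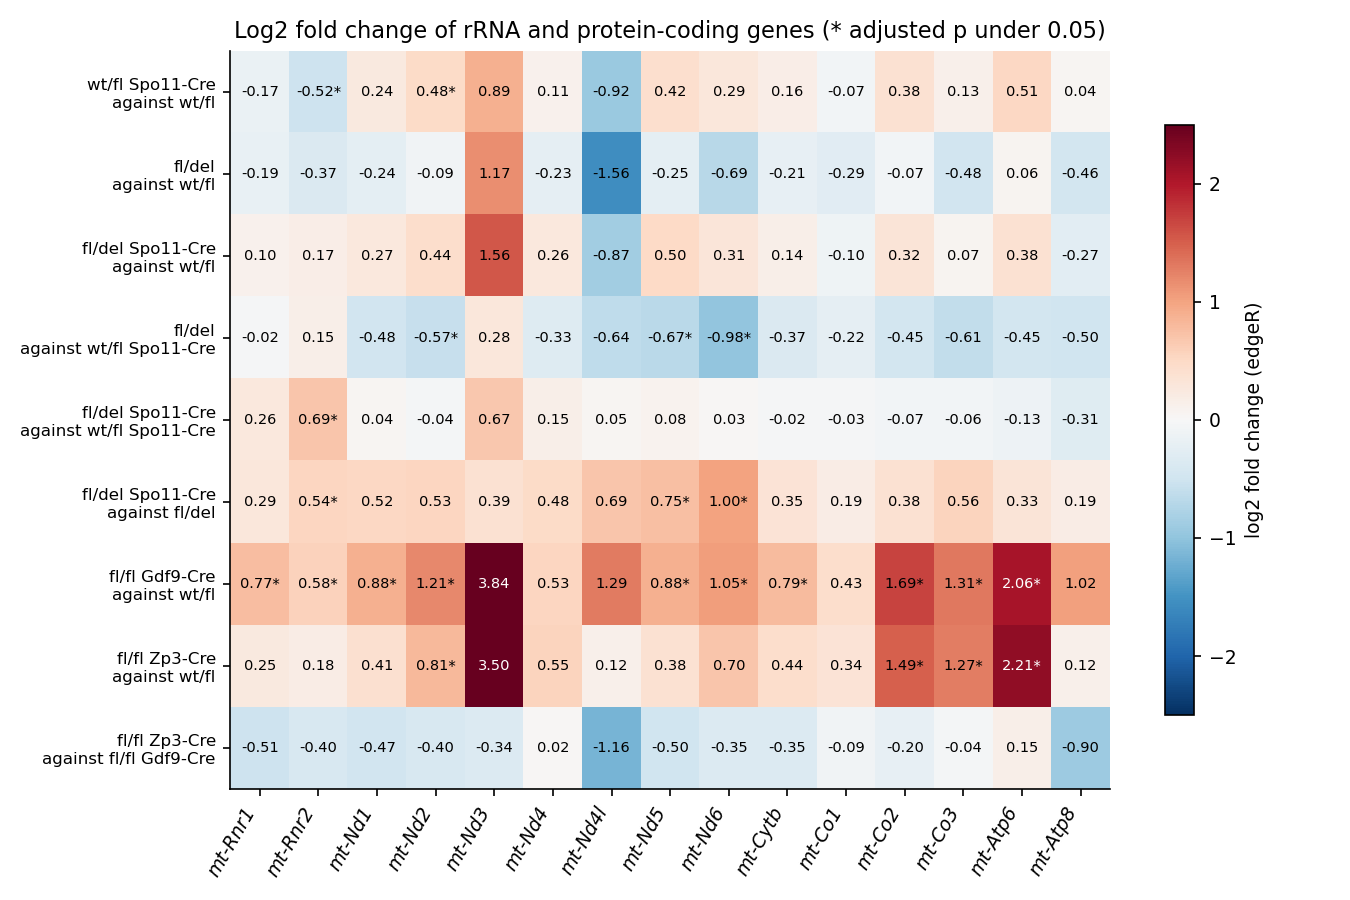
Log2 fold changes from edgeR of the 2 rRNA and 13 protein-coding genes (columns) in 9 comparisons between groups (rows); an asterisk marks an adjusted p under 0.05, and colours saturate at 2.5. All 15 genes are above 0 in fl/del Spo11-Cre against fl/del and in both fl/fl groups against wt/fl, and the largest called values are those of mt-Atp6 (2.06 and 2.21).

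Among the tRNAs edgeR and DESeq2 called none in any comparison. *mt-Tm* varied most between libraries of a group, from 0.356 to 13.0 CPM within fl/del Spo11-Cre. It was at 2.10, 9.58, 8.87 and 2.42 CPM in wt/fl, at 1.30 and 0 CPM with Gdf9-Cre and at 0.513 and 0.977 CPM with Zp3-Cre. These fl/fl libraries were below all wt/fl libraries for *mt-Tm*, an order whose share over all genes was not computed. The log2 fold changes were −3.15 (SE 0.94, adjusted p = 0.0709) and −3.02 (SE 0.95, adjusted p = 0.0758, edgeR). Without the filter on low counts, *mt-Tm* was called in both (adjusted p = 0.00116 and 0.00206, edgeR). *mt-Tq*, which ends 2 bp before it on the other strand, had 0.87 and 0.98 in the same comparisons, and *mt-Tp* 1.08 and 1.59.

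The nuclear genes of the same pathways were examined next. Of 75 nuclear subunits of the respiratory complexes and ATP synthase, all were tested. In wt/fl Spo11-Cre against wt/fl, 4 were called higher and none lower, namely *Ndufa5* of complex I (log2 fold change 0.45), *Uqcrb* of complex III (0.41), *Cox6b1* of complex IV (0.43) and *Atp5l* of ATP synthase (0.40). These 4 of 75 stand beside 0.867% of all genes tested that were called higher. In that comparison 29 of the 75 had an unadjusted p under 0.05 and 60 a log2 fold change above 0, with a median over the list of 0.157 beside 0.033 over all genes tested. In fl/fl Gdf9-Cre against wt/fl, *Sdhc* of complex II was called lower (−0.76, SE 0.14, adjusted p = 0.000619, edgeR) and none higher, with a median of 0.118. In the other comparisons edgeR called none of the 75, with 2 to 15 at an unadjusted p under 0.05. DESeq2 called 10 in wt/fl Spo11-Cre against wt/fl, 6 with Gdf9-Cre and 3 with Zp3-Cre against wt/fl, 1 between the drivers, and none elsewhere. Over all genes, DESeq2 called 931 of 22383 in wt/fl Spo11-Cre against wt/fl. Of 23225 it called 728 with Gdf9-Cre, 892 with Zp3-Cre and 381 between the drivers. In fl/del Spo11-Cre against fl/del, where 3 of the 75 had an unadjusted p under 0.05, the list median was −0.018 beside 0.482 for the 15 mitochondrially encoded genes. With Zp3-Cre, where 11 had an unadjusted p under 0.05, it was 0.018 beside 0.436. The most counted of them were *Atp5b* with a mean of 457 CPM and *Cox4i1* with 436 CPM.

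Of 28 genes for the expression of mitochondrial DNA, *Mterf3*, a factor of the mitochondrial terminator family, was higher in wt/fl Spo11-Cre (0.75, SE 0.17, adjusted p = 0.00646), in fl/fl Gdf9-Cre (1.03, SE 0.22, adjusted p = 0.00468) and in fl/fl Zp3-Cre (1.09, SE 0.22, adjusted p = 0.00155) than in wt/fl (edgeR). *Elac2*, which cuts the 3′ ends of precursor tRNAs, was lower in wt/fl Spo11-Cre (−0.58, SE 0.13) and in fl/fl Gdf9-Cre (−0.82, SE 0.19). It was higher in fl/fl Zp3-Cre than in fl/fl Gdf9-Cre (0.78, SE 0.21, adjusted p = 0.0492, edgeR). *Fastkd5*, needed for the processing of precursors without flanking tRNAs, was higher in fl/fl Zp3-Cre than in wt/fl (1.05, SE 0.29, adjusted p = 0.0334, edgeR). These comparisons share the wt/fl libraries. Of all genes tested, 0.867% were called higher and 1.33% lower in wt/fl Spo11-Cre against wt/fl. Higher calls were 0.538% with Gdf9-Cre and 1.04% with Zp3-Cre, and 0.891% were called between the drivers. Against wt/fl the list medians were 0.106, −0.125 and −0.034 in that order, with 18, 11 and 13 above 0. In each comparison 2 to 7 had an unadjusted p under 0.05 (edgeR). DESeq2 called 3, 2 and 3 there, 1 between the drivers and 1 in fl/del against wt/fl Spo11-Cre. Of 14 genes that maintain mitochondrial DNA, *Rrm2b*, a ribonucleotide reductase subunit, was called higher in fl/fl Gdf9-Cre against wt/fl (0.52, SE 0.14, adjusted p = 0.038, edgeR), beside 0.538% of all genes tested. The list went the other way there, with 2 of 14 above 0 and a median log2 fold change of −0.568. edgeR called no other of the 14 in any comparison, with up to 4 at an unadjusted p under 0.05. DESeq2 called 2 of the 14 in that comparison, 2 in wt/fl Spo11-Cre against wt/fl and 1 between the drivers. The DESeq2 counts over all genes are given above, and were 93 in fl/del against wt/fl Spo11-Cre. *Mterf4* and *Mtpap*, the mitochondrial poly(A) polymerase, were the most counted of the expression genes at 283 and 243 CPM.

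Variation between libraries of a group differed among the members. Pooled over the 6 groups, the within-group SD of log2 CPM was lowest for *mt-Rnr2* (0.19) and *mt-Rnr1* (0.22), between 0.28 and 0.40 for the protein-coding genes with counts in every library other than *mt-Nd6*, and 0.51 for *mt-Nd6*. The highest library was 2.87 times the lowest for *mt-Rnr2*, 3.48 times for *mt-Cytb* and 9.61 times for *mt-Nd6*. *mt-Nd3*, *mt-Nd4l* and *mt-Atp8*, the least counted protein-coding genes, were not called in any comparison.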

How the data were processed

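Oocytes were processed by the authors with SMART-seq v4 and Nextera XT, which amplify poly(A)-primed cDNA without strand marks or molecular identifiers, and sequenced in paired 150-base reads. Per the study's methods, reads were trimmed with fastp, aligned to GRCm38 with HISAT2 2.2.1, and uniquely mapped reads were counted with featureCounts 2.0.3. The deposited counts per gene exist with *Kif11* counted over all exons (used here), over exon 22 or over exon 1. The latter tables hold identical counts for the members, and for other genes the all-exon counts were 1.95 times as high (median). *mt-Atp8* (1.36 times) and *mt-Tn* (0 counts beside 82) departed from this, as did other weakly counted tRNAs. The counting of mates and of overlapping genes, and how the deposited TPM were computed by the authors, are not given in the sources used here.

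CPM used library totals. Symbols were matched for 54079 of 54232 gene IDs. edgeR 4.0.16 (TMM, quasi-likelihood, adjusted p under 0.05) was run on counts, with SE as the absolute log2 fold change over the root of F, and was tested on simulated data; DESeq2 1.42.0 was an alternative. Shared sequence was computed over GENCODE M21 transcripts. Intervals cover no PCR duplication. The members, lists and tests were chosen with earlier results of these data known. The naming rule was all rRNA and protein-coding members, the 3 most counted tRNAs, any called tRNA, and per nuclear list up to 2 called genes per direction and comparison; *mt-Tn* and the copies' values were named after they were seen.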

Additional observations from a re-analysis of the deposited data

Results flagged for a closer look

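The share and the 15 rRNA and protein-coding genes were screened in each group of 4 or 5 libraries for a library that stands apart, by Dixon's test at the 95% level. Of 64 screens 5 found one, and chance alone finds about 1 in 20. In fl/del, replicate 2 was above the 3 others for *mt-Nd2* (104.5 CPM), *mt-Co1* (575 CPM) and *mt-Nd5* (104 CPM). In wt/fl Spo11-Cre, replicate 2 was above the 4 others for *mt-Atp6* (6.21 CPM). In fl/del Spo11-Cre, replicate 3 was below the 3 others for *mt-Nd6* (21.5 CPM). The difference in *mt-Rnr2* between libraries with and without Spo11-Cre was not the same in wt/fl and fl/del. The log2 fold changes lay 1.06 apart (adjusted p = 5.71e-06 from edgeR's interaction term).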

How the results depend on the processing

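Counts of called members depended on single libraries and on the filter. Leaving out 1 library at a time gave 1 to 3 called members in wt/fl Spo11-Cre against wt/fl, 0 to 1 in fl/del Spo11-Cre against wt/fl, 0 to 4 in fl/del against wt/fl Spo11-Cre, 2 to 6 in fl/del Spo11-Cre against fl/del, 2 to 12 with Gdf9-Cre and 2 to 7 with Zp3-Cre against wt/fl, and 0 to 3 between the drivers. The log2 fold change of *mt-Nd1* with Gdf9-Cre ranged from −0.13 without Gdf9-Cre replicate 1 to 1.48 without replicate 2. The *mt-Rnr2* calls in the Spo11-Cre background held under every alternative run. Without the filter on low counts, 2 members were called for fl/del and 2 for fl/del Spo11-Cre, each against wt/fl, 3 in wt/fl Spo11-Cre against wt/fl, 5 in fl/del against wt/fl Spo11-Cre, 8 in fl/del Spo11-Cre against fl/del, 2 in the interaction and 7 with Zp3-Cre. Over all genes 80, 185, 742, 116, 134, 138 and 656 were called in that order. With the filter these totals were 5, 44, 491, 45, 54, 23 and 528. The comparison wt/fl Spo11-Cre against wt/fl had 1 call with filterByExpr, with all 21 libraries, or with libraries of a shared name prefix summed. In fl/del against wt/fl Spo11-Cre, 0 were called with filterByExpr or with all 21 libraries. In fl/del Spo11-Cre against fl/del, 5 were called with library totals or with the exon 22 table. With library totals 59 genes were called in all, beside 54 in the main fit. The member counts with 1 library left out were not set beside the number of all genes called. The cause of these changes was not tested.

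Of 24 pairs of libraries with the same replicate number in different groups, 4 correlated above 0.1 (median 0.0277). With other numbers it was 10 of 84 pairs (median −0.000847). Replicate numbers were not treated as pairs in the main fits. With the replicate block, 4 members were called in wt/fl Spo11-Cre and 1 in fl/del against wt/fl, 2 in fl/del Spo11-Cre against wt/fl, 7 in fl/del against wt/fl Spo11-Cre, 7 in fl/del Spo11-Cre against fl/del, 12 with Gdf9-Cre and 7 with Zp3-Cre. These counts were not set beside the number of all genes called with the block, so they do not single out the members.

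Of the deposited TPM the members held 0.483% (wt/fl) and 0.477% (wt/fl Spo11-Cre), then 0.379% without and 0.526% with Spo11-Cre on the fl/del background, 0.822% with Gdf9-Cre and 0.695% with Zp3-Cre. Without the rRNA genes the share of counts was 0.174%, 0.188%, 0.145%, 0.192%, 0.302% and 0.256% in the same order. Counts were lowest, and estimates least precise, for most tRNAs, *mt-Nd3* and *mt-Nd4l*.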
